A study of Mus musculus with 82 samples.

Results

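Accessible chromatin was followed from day 3 to day 7 of reprogramming in mouse fibroblasts that carried RNase H1(D209N), and the sites listed on 1 day but not on the other are described here together with the genes beside them. A day 7 peak that shared no base with any day 3 peak was called an opening site, a day 3 peak that shared none with day 7 a closing site, and the remainder kept sites. By this rule 16315 sites opened, 4729 closed and 24137 day 7 peaks were kept, 45181 sites in all, on chromosomes 1 to 19, X and Y. Kept sites correspond to 24460 peaks of the day 3 list. Presence in a list is what the rule used, so these numbers are a description and carry no test.

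The cells were OG2-MEFs, mouse embryonic fibroblasts infected with retroviruses for OSKM, the factors Oct4, Sox2, Klf4 and c-Myc. In the groups called D209N here the same cells also overexpressed RNase H1(D209N) from a retroviral vector, and were collected at day 3 and day 7. The comparison arm, called Flag here, received OSKM with overexpression of Flag and was collected on the same days. The labels give 2 replicates for each of these 4 groups, 8 ATAC-seq samples among the 82 of the series, and no age, sex or strain of the embryos.

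Reprogramming of fibroblasts begins with loss of the mesenchymal state and gain of epithelial features, before the pluripotency network is established. ATAC-seq marks open chromatin by the insertion of adapters with a transposase, so a peak shows where the DNA was reachable, not whether a gene was transcribed. Most mammalian promoters lie in CpG islands, which tend to be open in many cell types, while enhancers are more often specific to a cell type. RNase H1 removes the RNA strand of RNA:DNA hybrids (R-loops), and D209N is a substitution in its catalytic site that leaves binding to hybrids.

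Each group was represented by 1 deposited list of peak positions without signal or read counts. There was therefore no replicate spread, no test between days was possible, and the intervals given below are Wilson 95% intervals that cover counting error only. In D209N 29189 peaks were listed at day 3 against 40452 at day 7, and in Flag 36375 against 42439. Read depth is unknown, and by chromosome the day 7 list was 1.22 to 1.53 times as long as the day 3 list. How far the length of the lists moves the number of opening sites was not tested. In a mixed culture, more cells with an open site and a more open site in each cell cannot be told apart. Gene-end peaks stood at marker genes of several cell types, which does not by itself show that those genes were transcribed. Of 10 fibroblast markers, 6 had one at day 3 and 7 at day 7, of 7 pluripotency markers 2 and 3, and of 5 epithelial markers 2 and 4. The pluripotency markers included Pou5f1 on both days, the gene of the delivered factor Oct4, where reads of the vector could not be told apart. Of 4 macrophage and blood markers 1 had a gene-end peak on each day, and of 4 endothelial markers 2.

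The sequences below, which do not stand for their whole classes, are single examples of promoters that opened or closed between the days. Each is a RefSeq window of 300 bases on GRCm38.p6, from 250 before to 50 after an annotated start site, written in the direction of the gene. The first 4 promoters opened between day 3 and day 7, and their capitals mark CpG dinucleotides, which are dense in the neural gene Hes5 (chr4:154960673-154960972, plus strand, 41 CpG) and the epithelial gene Spint1 (chr2:119237110-119237409, plus strand, 28 CpG). They are fewer in the pluripotency gene Utf1 (chr7:139943606-139943905, plus strand, 17 CpG) and rare in the matrix gene Sparc (chr11:55420031-55420330, minus strand, 4 CpG).
Hes5: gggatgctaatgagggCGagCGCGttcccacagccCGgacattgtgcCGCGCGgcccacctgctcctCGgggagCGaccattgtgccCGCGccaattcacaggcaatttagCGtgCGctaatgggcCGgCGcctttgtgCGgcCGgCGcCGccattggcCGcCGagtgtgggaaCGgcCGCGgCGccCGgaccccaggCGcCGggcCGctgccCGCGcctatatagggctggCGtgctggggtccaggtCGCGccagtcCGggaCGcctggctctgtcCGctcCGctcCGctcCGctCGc
Spint1: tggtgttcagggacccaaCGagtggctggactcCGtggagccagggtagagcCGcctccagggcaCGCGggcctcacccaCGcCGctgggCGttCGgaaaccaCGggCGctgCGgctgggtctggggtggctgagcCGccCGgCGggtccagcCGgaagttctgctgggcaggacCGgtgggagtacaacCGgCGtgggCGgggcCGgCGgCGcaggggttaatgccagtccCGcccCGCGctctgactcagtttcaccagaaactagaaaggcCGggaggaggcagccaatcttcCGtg
Utf1: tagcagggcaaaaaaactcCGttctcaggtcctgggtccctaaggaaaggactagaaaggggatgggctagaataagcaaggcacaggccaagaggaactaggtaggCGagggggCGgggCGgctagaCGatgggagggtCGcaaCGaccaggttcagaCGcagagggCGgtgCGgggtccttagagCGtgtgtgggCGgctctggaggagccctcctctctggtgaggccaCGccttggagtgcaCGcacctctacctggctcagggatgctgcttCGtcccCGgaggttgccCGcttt
Sparc: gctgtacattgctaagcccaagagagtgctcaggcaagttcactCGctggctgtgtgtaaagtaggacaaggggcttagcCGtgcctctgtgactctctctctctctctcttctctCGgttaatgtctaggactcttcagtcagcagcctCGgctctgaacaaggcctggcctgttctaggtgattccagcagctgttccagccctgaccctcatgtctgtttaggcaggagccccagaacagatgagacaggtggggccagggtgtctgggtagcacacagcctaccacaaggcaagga

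The next promoters also opened, and their capitals mark the KLF letters CCNCACCC, on either strand, in the tight junction gene Ocln (chr13:100552449-100552748, minus strand, 24 CpG) and the collagen gene Col5a1 (chr2:27886175-27886474, plus strand, 34 CpG).
Ocln: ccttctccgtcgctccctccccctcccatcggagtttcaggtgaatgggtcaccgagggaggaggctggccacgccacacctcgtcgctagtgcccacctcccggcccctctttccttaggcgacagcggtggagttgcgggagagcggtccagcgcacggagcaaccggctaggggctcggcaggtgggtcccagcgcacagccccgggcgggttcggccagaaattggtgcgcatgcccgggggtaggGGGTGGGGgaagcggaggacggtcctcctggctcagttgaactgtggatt
Col5a1: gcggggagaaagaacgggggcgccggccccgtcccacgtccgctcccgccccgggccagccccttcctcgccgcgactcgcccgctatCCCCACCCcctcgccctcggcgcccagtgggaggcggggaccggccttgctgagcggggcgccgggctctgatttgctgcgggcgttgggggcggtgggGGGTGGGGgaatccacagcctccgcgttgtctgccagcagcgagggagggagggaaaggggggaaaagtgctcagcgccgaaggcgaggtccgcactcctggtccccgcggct

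The last pair closed, and the capitals mark the AP-1 letters TGANTCA in Krt13, a keratin gene (chr11:100121517-100121816, minus strand, 2 CpG), and Serpinb7, a serpin gene (chr1:107422439-107422738, plus strand, 0 CpG).
Krt13: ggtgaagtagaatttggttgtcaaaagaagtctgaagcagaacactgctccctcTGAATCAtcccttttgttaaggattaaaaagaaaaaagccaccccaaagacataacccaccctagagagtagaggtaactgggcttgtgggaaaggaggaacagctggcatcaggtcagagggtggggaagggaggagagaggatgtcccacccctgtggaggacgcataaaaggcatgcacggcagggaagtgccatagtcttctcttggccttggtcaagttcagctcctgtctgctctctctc
Serpinb7: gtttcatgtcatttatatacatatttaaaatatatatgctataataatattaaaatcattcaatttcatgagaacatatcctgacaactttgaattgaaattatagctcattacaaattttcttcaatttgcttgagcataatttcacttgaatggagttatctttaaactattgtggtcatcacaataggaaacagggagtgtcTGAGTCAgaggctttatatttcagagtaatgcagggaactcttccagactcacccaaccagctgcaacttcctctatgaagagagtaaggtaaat

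Opening sites were narrow and lay mostly away from genes' ends. Their median width was 315 bp (quartiles 243 and 438), against 303 bp for closing sites and 663 bp for kept sites at day 7. A peak counted as lying at a gene end when it overlapped the 1 kb on either side of an annotated end of a protein-coding gene. Of opening sites 15.6% (15.1 to 16.2) lay there, of closing sites 3.81% (3.30 to 4.39) and of kept sites 42.6% (42.0 to 43.2). The interior of genes off their ends held 44.4% of opening and 48.1% of closing sites, and 40.0% and 48.1% lay between genes. Closing sites were the most remote class. The share over 100 kb from any coding gene end was 29.0% (27.7 to 30.3) for closing, 11.0% (10.5 to 11.5) for opening and 9.62% (9.26 to 10.0) for kept sites. Within 5 kb of an opening site stood another opening site in 15.0% of cases and a kept site in 14.3%. For closing sites, which are fewer, the shares were 3.51% with another closing site and 12.7% with a kept site.

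**Figure D1:**
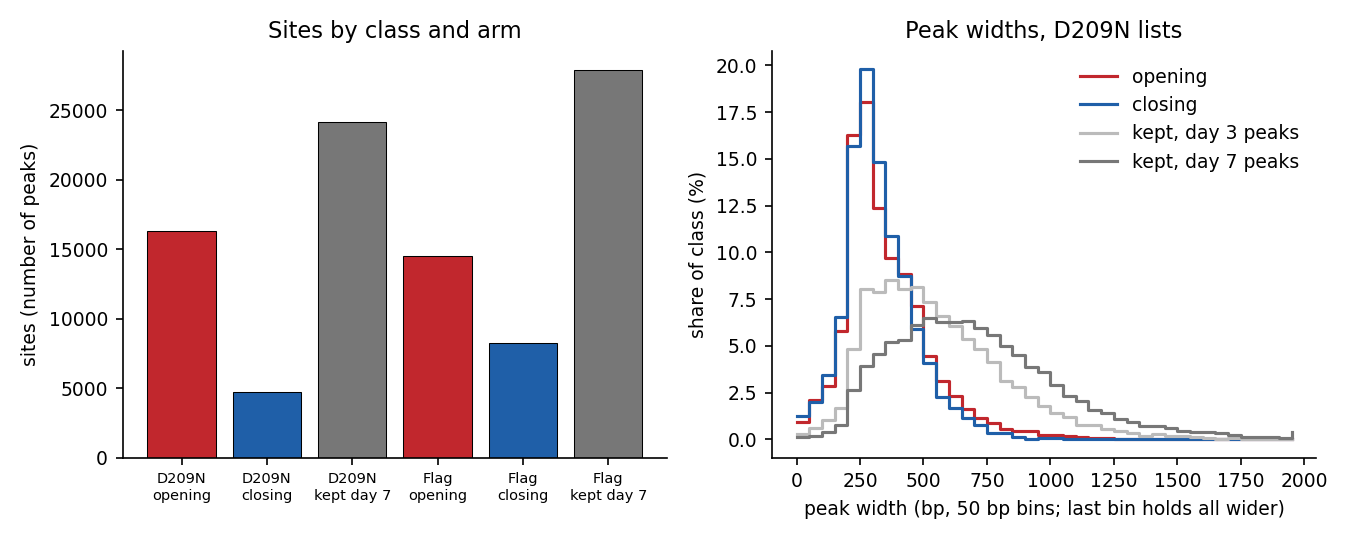
Left, number of sites of each class in the D209N and Flag lists (bars; kept sites counted as day 7 peaks). Right, peak width in bp against the share of each D209N class in percent, where opening and closing sites peak near 250 to 300 bp and kept sites are wider, more so at day 7.

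The Flag arm held 14546 opening sites, fewer than D209N, and 8271 closing sites, more than D209N, with median widths of 285 and 315 bp. Gene ends held 13.3% (12.8 to 13.9) of Flag opening sites and 4.43% (4.00 to 4.89) of Flag closing sites. The share over 100 kb from a gene end was 28.3% for Flag closing sites, so the remoteness of closing sites was a feature of both arms.

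Kept sites widened. Among 23608 kept sites with 1 peak on each day, the median width went from 508 to 659 bp, and 77.7% were wider at day 7. The median ratio of day 7 to day 3 width was 1.22 (quartiles 1.02 and 1.54). At gene ends 88.7% were wider, with a median ratio of 1.27, and elsewhere 69.6%, with a median ratio of 1.18. In Flag 66.4% of 27248 such sites were wider, with a median ratio of 1.10. The D209N day 7 list was thus both longer and wider at kept sites, and the part of sequencing depth in this was not tested. The border between classes was thinly filled. Of the kept day 7 peaks 152 shared fewer than 50 bp with a day 3 peak, and 348 opening sites had a day 3 peak within 500 bp. Most opening sites, 13571, had none within 5 kb.

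Around start sites the classes separated most clearly. Of kept sites 36.5% had their centre within 1 kb of an annotated start, of opening sites 10.8% and of closing sites 1.97%. Between 1 and 5 kb from the start, 450 opening sites lay upstream and 589 downstream, an upstream share of 43.3%. For closing sites the numbers were 122 and 134, and for kept sites 537 and 569.

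**Figure D2:**
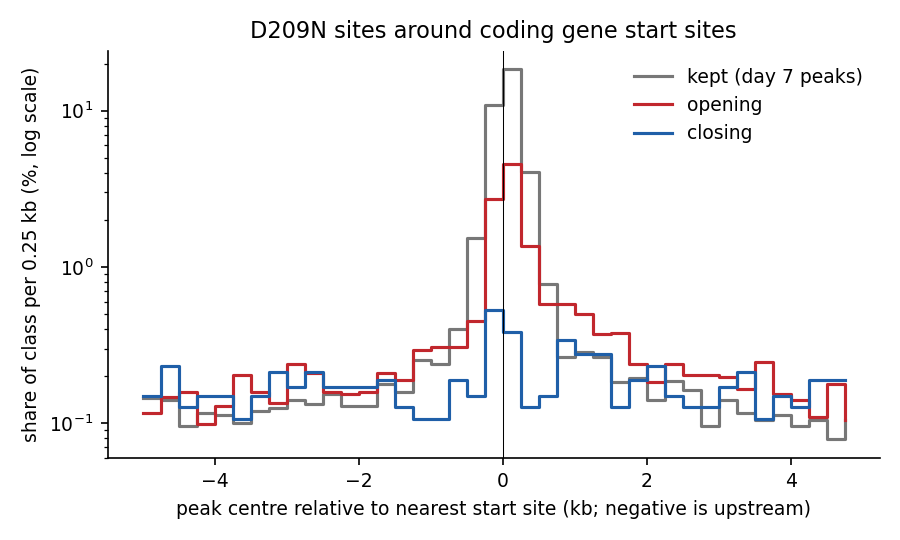
Position of the peak centre relative to the nearest coding gene start site (kb, negative is upstream) against the share of each D209N class per 0.25 kb bin (percent, log scale). Kept and opening sites rise sharply at the start, and closing sites show little rise, with 1.97% of them within 1 kb.

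Most opening sites were also listed in Flag. Of the 16315 sites, 72.0% (71.3 to 72.7) were listed in Flag at day 7 and 32.5% (31.8 to 33.2) already at day 3. Sites in Flag day 7 alone made up 44.3%, sites in both Flag lists 27.7%, sites in neither 23.2% and sites in Flag day 3 alone 4.84%. These groups differed in form. Sites also open in both Flag lists were the widest, with a median of 419 bp, and 23.3% (22.1 to 24.5) lay at gene ends. Sites in neither Flag list were the narrowest, with a median of 246 bp and 8.93% (8.07 to 9.89) at gene ends. Of closing sites 70.8% (69.4 to 72.0) were listed in Flag at day 3 and 21.4% (20.3 to 22.6) at day 7. The 2652 closing sites found in Flag day 3 alone, 56.1% of the class, lay a median of 46.9 kb from the nearest gene end, and 2.49% of them lay at one. Flag shares of kept sites and of whole lists were not computed, so these shares stand without a base. Of promoter windows listed in D209N on both days, 98.4% were listed in Flag at day 3 and 99.8% at day 7. Of those listed in D209N at day 7 alone, the shares were 50.8% and 87.5%.

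Among 21887 protein-coding genes, 11319 had a gene-end peak in D209N at day 3 and 13223 at day 7. The peak was gained at 1974 genes, 9.02% of all and 18.7% of the 10568 genes that had none at day 3. It was lost at 70 genes, 0.320%. An opening site accounted for the gain at 1906 genes, and at 68 a kept site came to reach the window. Of the gained genes 90.6% (89.3 to 91.8) had a gene-end peak in Flag at day 7 and 49.2% (47.0 to 51.4) had one already at day 3. A further 153 were in neither Flag list. In Flag 1363 genes gained one, 14.1% of the 9644 without one at day 3. When each site went to the coding gene whose end lay closest to its centre, at most 100 kb away, 33.3% of genes had more peaks at day 7 and 7.21% had fewer. The median change over all coding genes was 0 peaks. The lists of genes below were chosen with earlier results of these data in view, and each count of gained genes stands beside 18.7%, and beside 44.5% where only genes with a CpG-rich promoter are counted, as given with the neural genes below.

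Epithelial genes were among those that gained accessible ends, and their promoters were CpG-rich, with a median of 19 CpG among those without a gene-end peak at day 3, against 4 for all such genes. Of 40 genes on the list, 16 had a gene-end peak at day 3, against 30 at day 7, so 14 of the 24 without one gained it and 0 lost it. Assigned peaks rose in number at 20, fell at 4 and were equal at 16. Cdh1 (chromosome 8, 106603350 to 106670247), which encodes E-cadherin, had 1 assigned peak at day 3 and 6 at day 7, 5 of them opening sites. In Flag it had 4 and then 2. Cdh3, the P-cadherin gene, lies beside Cdh1 and went from 1 to 2 peaks, against 1 to 5 in Flag. The split between these neighbours rests on the nearest end, and within 20 kb Cdh1 had 1 opening site in D209N. The splicing regulators of epithelial cells Esrp1 and Esrp2 went from 1 to 3 and from 0 to 3, against 1 to 2 and 1 to 3 in Flag. The transcription factors Grhl2 (3 to 6 peaks) and Grhl3 (2 to 3 peaks), which activate epithelial junction genes, gained a gene-end peak as well.

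The junction genes behaved alike. Ocln, which encodes occludin, went from 0 to 2 peaks in both arms, and its promoter shown above opened in both. Tjp1, the gene of the scaffold protein ZO-1, went from 5 to 9 peaks in D209N and from 6 to 9 in Flag. Marveld3, a tight junction gene, went from 1 to 4 peaks, against 2 to 3 in Flag. Spint1, an inhibitor of serine proteases on epithelial cells, went from 1 to 2 peaks in D209N and from 0 to 2 in Flag. The keratin gene Krt19 went from 0 to 1 peak in D209N and had 0 on both days in Flag. Ovol1 gained its gene-end peak through a site assigned to a neighbour, and Ap1m2 through a kept site that reached the window at day 7. Of the 14 genes that gained a gene-end peak, 13 had a gene-end peak in Flag at day 7, and 5 had it there at day 3.

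Neural genes had the highest gained share among lists with more than 10 genes to gain. Of 18 genes 6 had a gene-end peak at day 3, against 15 at day 7, and 9 of the 12 without one gained it. Peaks were more numerous at 14 genes, fewer at 2 and equal at 2. Sox1, a transcription factor of the neural plate, went from 1 to 5 assigned peaks in D209N and from 0 to 4 in Flag. Hes5 (chromosome 4, 154960626 to 154962372), a Notch target in neural progenitors, went from 0 to 4 in D209N and from 1 to 2 in Flag. The proneural factor Neurog1 went from 1 to 4, against 0 to 3 in Flag. Nkx2-2, a factor of the ventral neural tube, went from 1 to 5 peaks, Olig1 from 1 to 3 and Pax3 from 0 to 3. Sox3 and Zic1 each went from 0 to 1. Both had their gene-end peak in Flag already at day 3, unlike the other 7, and all 9 had it in Flag at day 7. The gains of the lists have to be read against the CpG content of their promoters. Of all 2343 genes with a promoter window of at least 10 CpG and no gene-end peak at day 3, 44.5% gained one. Among such genes 5 of 7 neural, 5 of 10 epithelial, 3 of 6 mesenchymal factor, 3 of 7 Wnt, 2 of 5 endoderm, 4 of 4 matrix and 2 of 6 pluripotency genes did. These counts are small, and the epithelial, mesenchymal, Wnt, endoderm and pluripotency shares are near or below 44.5%.

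Pluripotency genes gained gene-end peaks at a share near that of all genes. Of 36 genes 12 had one at day 3 and 17 at day 7, and 5 of the 24 without one gained it, 20.8% against 18.7% for all genes. Assigned peaks were more numerous at 18, fewer at 1 and equal at 17. Sall4 (chromosome 2, 168748332 to 168767201), a zinc finger factor of embryonic stem cells, went from 0 to 3 peaks, all opening sites, where Flag had 3 on both days. Utf1, a chromatin-associated factor of stem cells, went from 1 to 2, where Flag had 2 on both days. Its promoter window shown above overlapped a peak in D209N at day 7 alone, and the Flag gene-end peaks lay outside that window. Fgf4, a growth factor gene and target of Oct4 and Sox2, went from 0 to 1 in both arms. Eras, a Ras gene of stem cells, went from 0 to 2, against 0 to 1 in Flag, where no gene-end peak was listed. Dnmt3l, a cofactor of DNA methyltransferases, gained a gene-end peak from a site assigned to a neighbouring gene. Nanog and Esrrb, core factors of the network, had no gene-end peak on either day. Their assigned peaks went from 1 to 3 for Nanog and from 0 to 3 for Esrrb, all of the added ones opening sites. In Flag Nanog had 2 on both days and Esrrb went from 1 to 2. The promoter window of Sox2, a delivered factor, was opening too, and reads of the vector could not be told apart here. Sox2 had a gene-end peak in D209N on both days, and Flag listed the same window on both days.

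Mesenchymal genes did not close as a group. Of 31 mesenchymal transcription factor genes 17 had a gene-end peak at day 3, against 23 at day 7, with 7 gained of 14 without one and 1 lost. Peaks were more numerous at 22, fewer at 3 and equal at 6. Twist2, a driver of mesenchymal identity, went from 2 to 4 peaks in D209N and from 3 to 6 in Flag. The neighbouring forkhead genes Foxf1 and Foxc2 went from 0 to 1 and from 0 to 2 in both arms, and Foxf2 went from 0 to 2, against 2 to 4 in Flag. Prrx2 went from 1 to 2 in both arms. Alx4, a homeobox gene of limb and face, went from 0 to 2, against 1 to 2. Ebf2 went from 3 to 6 in both arms.

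Genes of the fibroblast matrix moved in both directions. Of 33 genes 20 had a gene-end peak at day 3, against 27 at day 7, with 7 gained of 13 without one and 0 lost. Assigned peaks were more numerous at 19, fewer at 7 and equal at 7, and the list held 56 opening and 18 closing sites. The 7 genes with fewer peaks were named after their values were seen. Col5a2, a fibrillar collagen gene, went from 4 to 1 peaks, against 3 to 1 in Flag, and Fn1, the fibronectin gene, from 4 to 3, against 5 to 3. The collagen genes Col1a2 (6 to 5, against 6 to 8) and Col3a1 (3 to 2, against 2 on both days), Lox, a collagen cross-linking enzyme (2 to 1, against 2 on both days), and Postn (1 to 0, against 1 to 2) fell by 1 peak each, and Fbn2 is given below. Among the genes with more, Col5a1 (chromosome 2, 27886381 to 28039510), a fibrillar collagen gene, went from 0 to 4 assigned peaks in D209N and from 1 to 5 in Flag. Eln, the elastin gene, went from 0 to 2 in both arms. Sparc, a collagen-binding matrix glycoprotein gene, went from 3 to 5, against 2 to 5. Timp3, an inhibitor of matrix proteases, went from 3 to 5 in both arms, and Col8a1 went from 0 to 2, where Flag had 2 on both days. Vcan, the versican gene, went from 2 to 3. Fbn2, the gene of a microfibril protein, gained a gene-end peak while its assigned peaks went from 2 to 1, and Flag went from 4 to 1. Of 22 surface and contractile genes of fibroblasts 2 of the 9 without one gained a gene-end peak, the smooth muscle genes Tagln and Myl9. Thy1, a fibroblast surface marker, went from 2 to 4 assigned peaks and from 1 to 4 in Flag, with no gene-end peak.

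Signalling genes changed unevenly. Among 28 Wnt genes 7 of the 12 without a gene-end peak gained one, 0 lost one, and 19 had more peaks and 0 fewer. All 7 of these Wnt genes with a promoter window at hand were CpG-rich, and 3 of them gained one. Lef1, a transcription factor of the Wnt pathway, went from 4 to 10 assigned peaks in D209N and had 9 on both days in Flag. The ligand gene Wnt7b went from 5 to 10, against 7 to 9. Wnt5a, a ligand of noncanonical signalling, went from 1 to 4 with a gene-end peak gained, whereas Flag went from 3 to 2 and lost it. The ubiquitin ligase gene Rnf43, a brake on Wnt receptors, went from 0 to 4, against 1 to 3. The co-receptor gene Lrp5 went from 2 to 3, the secreted modulator Sfrp2 from 2 to 4, and Rspo3, an enhancer of Wnt signalling, had 3 on both days. Among 33 TGF-beta and BMP genes 28 had a peak at an end at day 3, and 2 of the remaining 5 gained it, the ligand genes Tgfb1 and Bmp2. With windows of 2.5 kb 0 of these genes gained one and with 0.5 kb 4 did. Bmp2 went from 1 to 3 peaks, against 4 to 2 in Flag. Of 19 Hippo and TEAD genes 2 of 4 gained, the factor Tead3 (1 to 2 peaks, against 4 to 2) and the YAP target Ccn1 (3 to 7 peaks, against 4 to 8).

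Some regulators of other lineages gained a gene-end peak as well. Among 14 endoderm genes 4 of 11 gained a gene-end peak, namely Sox17, Sox7, Eomes and Pdx1. Sox17, a factor of definitive endoderm, went from 1 to 3 peaks, against 2 to 3 in Flag, and Pdx1, a pancreas factor, went from 0 to 1 in both arms. Among 10 muscle genes 3 of 8 gained one. Pax7, a factor of muscle stem cells, went from 0 to 6 peaks, against 1 to 3 in Flag, where no gene-end peak was listed. Myod1, the muscle determination factor, went from 0 to 1 in both arms, and the cardiac actin gene Actc1 from 1 to 2 in both. Of 9 trophoblast genes 2 of 8 gained, Eomes and, through a kept site, Cdx2, with 1 gained for windows of 0.5 kb and 0 for 2.5 kb. With a CpG-rich promoter 2 of 5 endoderm, 1 of 3 muscle and 2 of 4 trophoblast genes gained one, beside 44.5% of all such genes. These counts are too small to set the lists apart from that share.

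In the remaining lists at most 1 gene gained a gene-end peak. Such peaks were present at 21 of 22 R-loop processing genes, 24 of 26 cell cycle genes and 13 of 17 KLF genes on each day, and 0 were gained in these lists. Single gains were Batf3 among 12 AP-1 genes, Kdm2b among 28 Polycomb genes, Cdkn1a among 20 p53 and senescence genes and Ifit1 among 19 interferon genes. Cdkn1a, which encodes the cell cycle inhibitor p21, went from 4 to 7 assigned peaks, against 5 to 6 in Flag. Kdm2b, which brings a Polycomb complex to CpG islands, went from 3 to 6, against 4 to 8. Dnmt3l was also the gain among 9 DNA methylation genes. Of 16 housekeeping genes 15 had a peak at an end at day 3, and Actb lost it in both arms while it had 5 peaks at day 3 and 4 at day 7. Markers of other cell types, most of which had no gene-end peak on either day, gained singly, with Kit of 12 macrophage and blood genes, Flt1 of 10 endothelial genes and Krt1 of 11 keratinocyte genes. With windows of 0.5 kb or 2.5 kb 3 endothelial genes gained one. Tal1, a blood stem cell factor, lost its gene-end peak in D209N and gained it in Flag.

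**Figure D3:**
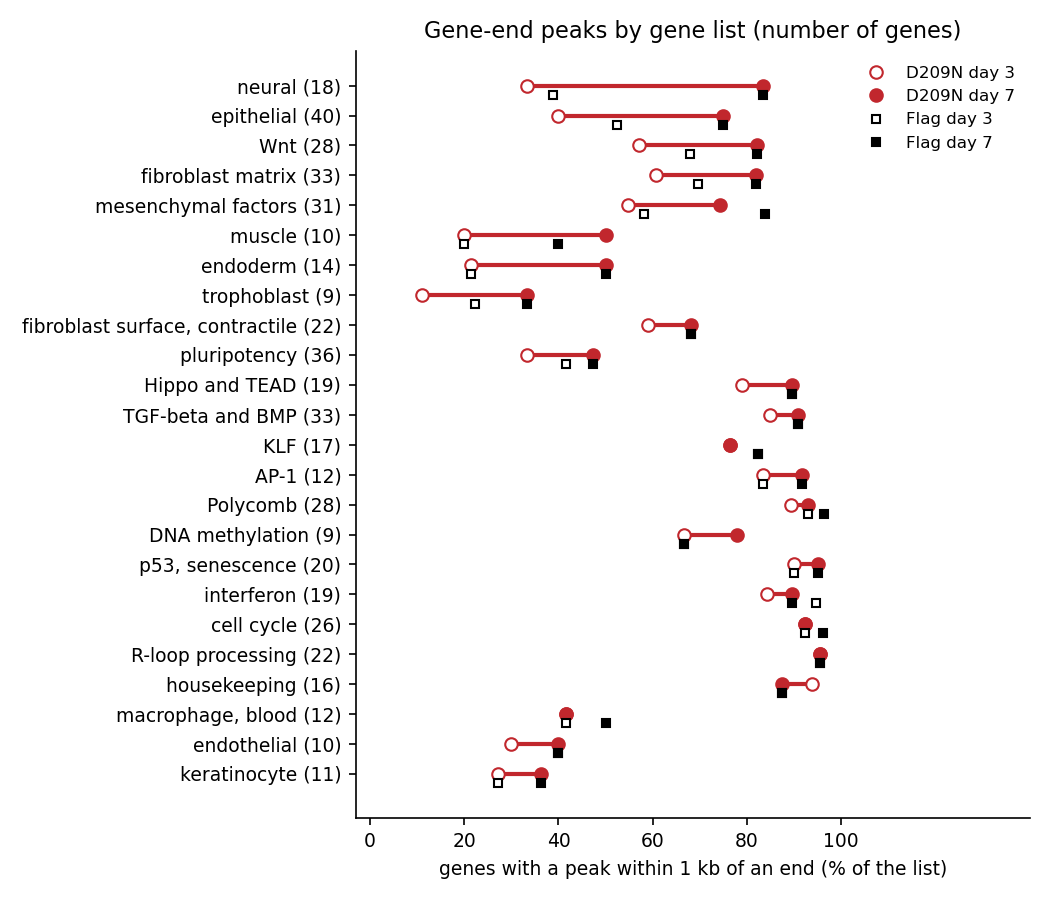
Share of the genes of each list with a peak within 1 kb of an end (percent, number of genes in parentheses), at day 3 (open) and day 7 (filled), in D209N (red circles, joined by a line) and Flag (black squares). Neural genes went from 6 to 15 of 18 and epithelial genes from 16 to 30 of 40 in D209N, while lists such as R-loop processing stayed near the top on both days.

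Opening of promoters followed their CpG content. RefSeq windows were at hand for 17469 of the coding genes, 21238 windows in all. Of these 10143 overlapped a D209N peak on both days, 1870 at day 7 alone and 68 at day 3 alone. The opening windows made up 17.0% of the 11027 not listed at day 3. The median number of CpG per window was 23 in kept, 19 in opening, 7.50 in closing and 3 in unlisted windows. Among windows not listed at day 3, opening took place in 1.96% (1.64 to 2.35) of those with 0 to 4 CpG and 11.3% (10.1 to 12.6) with 5 to 9. The share was 39.4% (36.9 to 41.9) with 10 to 19 CpG, 64.1% (60.6 to 67.5) with 20 to 29, and 77.0% (73.4 to 80.3) with 30 or more. Flag had the same order at lower levels, at 1.48%, 9.11%, 30.9%, 55.8% and 69.9%. The bases differ, because in each class fewer windows were unlisted in Flag at day 3. With 30 or more CpG these were 346 in Flag against 570 in D209N, and with 20 to 29 CpG 502 against 739. The lower Flag shares therefore do not show that fewer such promoters were listed there at day 7. Closing ran the other way, from 9.38% of the listed windows with 0 to 4 CpG down to 0.0369% of those with 30 or more. Hes5 and Spint1, shown above, belong to the upper classes, and Sparc is 1 of 114 windows with 0 to 4 CpG that opened.

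**Figure D4:**
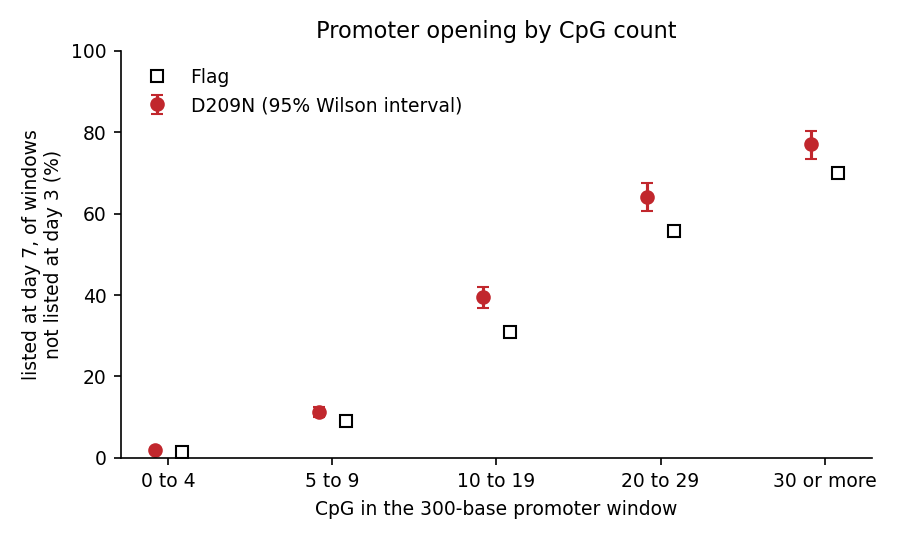
CpG count of the 300-base promoter window against the share of windows not listed at day 3 that were listed at day 7 (percent), for D209N (circles with 95% Wilson intervals) and Flag (squares). The share rises with each class, from 1.96% to 77.0% in D209N.

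The 14 sets of letters searched on both strands told opening from kept promoters in a few cases. The ETS letters CCGGAAG stood in 6.84% (5.79 to 8.08) of opening and 20.6% (19.8 to 21.4) of kept windows, beside 11.6% of all windows. The CRE letters TGACGTCA stood in 0.749% (0.446 to 1.25) and 3.86% (3.51 to 4.26), beside 2.24%. The CCAAT box, CCAAT, stood in 29.1% (27.1 to 31.2) and 40.2% (39.2 to 41.1), beside 38.2%. The KLF letters CCNCACCC went the other way, with 25.3% (23.4 to 27.3) of opening and 19.6% (18.9 to 20.4) of kept windows, beside 18.1%. Within windows of at least 10 CpG the shares for opening and kept windows were 7.65% and 21.8% for ETS, 26.5% and 39.4% for CCAAT, 27.1% and 19.6% for KLF, and 0.812% and 4.08% for CRE. In that class the windows listed on neither day held ETS in 6.72% (5.47 to 8.23), CCAAT in 29.6% (27.2 to 32.2), KLF in 27.7% (25.3 to 30.2) and CRE in 2.13% (1.47 to 3.09). For CRE this lay above the opening windows, at 0.812% (0.465 to 1.41). The octamer ATGCAAAT, a POU factor sequence, stood in 1.18% of opening and 1.48% of kept windows, beside 1.66% of all. The GC box GGGCGG stood in 62.9% and 70.9%, beside 46.2%. In the 550 opening windows that a day 7 peak covered whole it stood in 76.5%. Whole cover was not asked of kept windows, so that share cannot be set against theirs. The other sets were SOX (ACAAAG, 14.3% of opening windows beside 16.8% of all), TEAD (GGAATG, 13.1% beside 13.6%) and RUNX (TGTGGT, 10.4% beside 15.0%). CEBP (TTGCNNAA) stood in 7.17% beside 10.2%, GRHL (AACNNGTT) in 3.37% beside 4.05%, the E-box CACGTG in 8.88% beside 7.84% and NFI (TTGGCA) in 10.7% beside 13.1%. A match is a run of letters, not a bound site.

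Closing promoters were few and had fewer CpG than opening or kept ones, with 10 or more in 27 of 68 windows (39.7%). The AP-1 letters stood in 14 of the 68 closing windows, 20.6% (12.7 to 31.6), against 5.99% (5.00 to 7.16) of opening, 4.07% of kept and 6.99% of all windows. Windows listed on neither day, which are CpG-poor too, held them in 10.3% (9.72 to 11.0). Of the 14 closing windows with the AP-1 letters, 12 were listed in Flag at day 3 and 10 at day 7, that of Cyp3a13 at day 7 alone. The 4 not listed in Flag at day 7 were those of Serpinb7, Krt13, Laptm4a and Clic1. The single match in the Serpinb7 window stands close before the start site, as the capitals above show, and that in Krt13 stands near the upstream edge.

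Opening sites were spread over 8096 coding genes, 37.0% of all, and closing sites over 2644, 12.1%. Of coding genes 3.23% (706) had 4 or more opening sites within the 100 kb assignment, and 0.571% (125) had 3 or more closing sites. Rybp (chromosome 6, 100228565 to 100287358), a subunit of Polycomb complexes that modify histone H2A, went from 2 to 15 peaks, 13 of them opening sites, where Flag went from 8 to 14. Bcor (chromosome X, 12036737 to 12160516), a corepressor that is also part of such a complex, went from 5 to 16, against 13 to 20 in Flag. Of the 12 opening sites of Bcor 0 lay within 20 kb of an end of the gene, and of the 13 of Rybp 2 did. The cytoskeletal genes Septin9 and Tns3 each had 13 opening sites, and Septin9 went from 7 to 18 peaks, against 8 to 22. The focal adhesion gene Tns3 went from 10 to 21, against 16 to 18. Mvb12b, a gene of the ESCRT machinery, went from 1 to 13, against 3 to 9, and Rbm20, a splicing regulator of titin, from 2 to 14, against 6 to 10.

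The next genes in number of opening sites were Zfp536 (2 to 13 peaks), Zfp516 (6 to 16), 1700001O22Rik (2 to 12), Cacna1a, a calcium channel gene (2 to 12), Ctif, a translation factor gene (9 to 19), and Rhou, a small GTPase gene (10 to 20). In Flag all 12 of these genes also had more peaks at day 7 than at day 3. Day 3 counts were higher in Flag at 11 of them and equal, at 10, for Rhou. The genes were picked for peaks missing from the D209N day 3 list, so low D209N counts on that day were built in. That list was also shorter than the Flag list, with 29189 peaks against 36375. Among genes without any day 3 peak, Tle3, a Groucho corepressor gene, went from 0 to 9 peaks, against 4 to 9 in Flag. Lhx2, a LIM homeobox gene, went from 0 to 7, against 4 to 6. The neural genes Grm4 (0 to 7, against 1 to 8), Kcnn3 (0 to 7, against 2 to 6) and Srcin1 (0 to 7, against 0 to 9), and the cadherin gene Cdh22 (0 to 6, against 1 to 8), completed the set. All 6 gained a gene-end peak. In all, 2271 genes went from no assigned peak at day 3 to at least 1 at day 7.

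Fewer closing sites fell to any 1 gene. Sptssb (chromosome 3, 69819538 to 69861363), which encodes a small subunit of serine palmitoyltransferase, went from 11 to 4 peaks with 6 closing sites, and Flag went from 10 to 5. Hpgd, the enzyme that inactivates prostaglandins, went from 9 to 4 in both arms. Slit2, an axon guidance ligand, went from 8 to 3, against 8 to 6 in Flag, and Syne1, which encodes a nesprin of the nuclear envelope, from 8 to 3, against 7 to 4. Epdr1 went from 8 to 3, against 5 to 3, Atp10a, a flippase gene, from 14 to 11, against 20 to 12, and Arap2 from 5 to 1, against 6 to 1. Pdlim5, a gene of a cytoskeletal LIM protein, went from 11 to 8, where Flag had 13 on both days. Of these 12 genes, Slit2 and Atp10a had no gene-end peak on either day, and the other 10 had one on both.

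The genes that had an assigned day 3 peak and no assigned day 7 peak numbered 377. Samsn1, an adaptor gene of blood cells, went from 4 peaks to 0 in both arms, and Bmx, a tyrosine kinase gene, from 3 to 0 in both. Dthd1 went from 4 to 0, against 4 to 1 in Flag. So did 1600012H06Rik, which kept a peak at its end that is assigned to a neighbour, and had 0 closing sites by nearest gene body. Gabrg3, a GABA receptor gene, went from 3 to 0, against 4 to 1. Cib4 went from 3 to 0, against 1 to 2. A few genes had many sites of both kinds. Camk2d, a calmodulin kinase gene, had 7 opening and 6 closing sites and went from 15 to 16 peaks. Gli3, a transcription factor of Hedgehog signalling, had 5 of each and 9 peaks on both days, and Nfib, a nuclear factor I gene, had 4 opening and 5 closing and went from 13 to 12. Phlpp1 and Zfhx4 each had 5 opening and 4 closing, and Abca1, the cholesterol exporter gene, 4 of each. At these genes the number of peaks stayed nearly level while their positions changed.

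**Figure D5:**
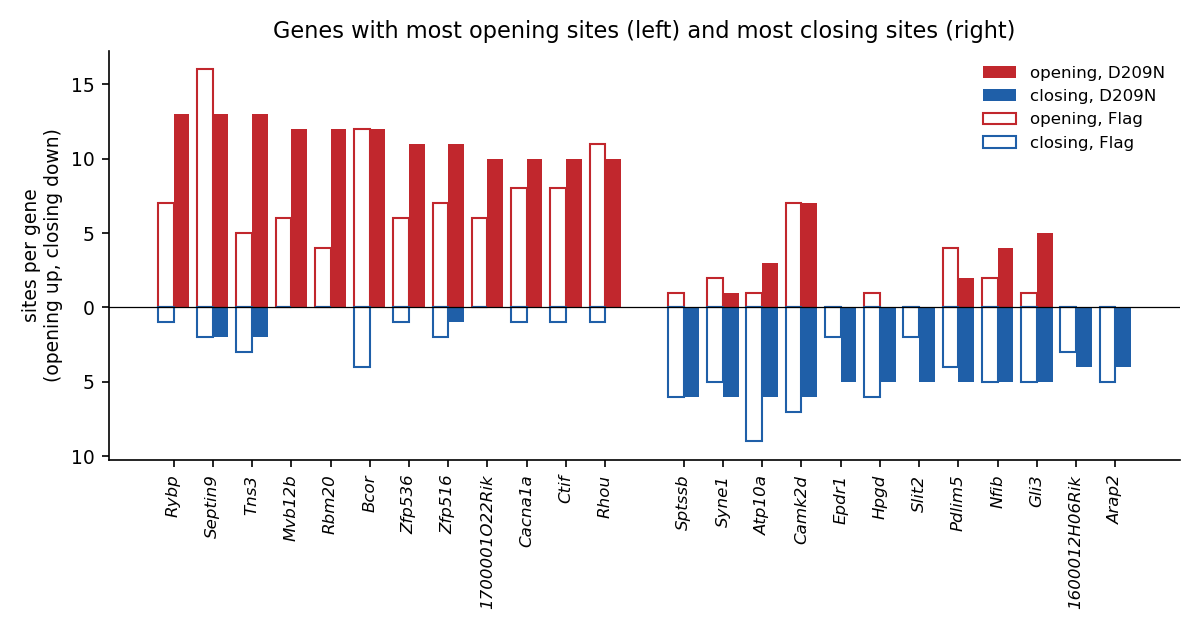
Number of opening sites (red, above 0) and closing sites (blue, below 0) assigned to the 12 genes with most opening (left) and the 12 with most closing sites (right), in D209N (filled) and Flag (outlined). Rybp had 13 opening sites in D209N and 7 in Flag, and Atp10a had 6 closing sites in D209N and 9 in Flag.

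Along the chromosomes a run was a series of sites of 1 class with no kept or opposite site between them. Most were single sites. Of 9529 opening runs 5791 held 1 site and 728 held 4 or more, and of 3806 closing runs 3128 held 1 and 52 held 4 or more. The longest held 15 opening sites over 689 kb of chromosome 2 (27758290 to 28447234), near Rxra, Col5a1, Fcnb, Olfm1 and Ppp1r26, and 14 of the 15 were listed in Flag at day 7 against 3 at day 3. The second held 14 sites over 282 kb of the same chromosome (33594924 to 33877096), near Lmx1b and Mvb12b, with 11 listed in Flag at day 7. Runs of 12 lay near Bpi and Lbp, near Prex1, both on chromosome 2, and around Pax7 on chromosome 4 (139670029 to 140038204). Closing runs reached 7 sites and were spread over longer stretches. They lay near Efnb2 (690 kb), Kif2b (935 kb), Slitrk5 and Gpc5 (1700 kb), Serpinb8 and Cdh7 (1790 kb), and Cdh6 and Cdh9 (3360 kb). In each of these 5 runs 5 or 6 of the 7 sites were listed in Flag at day 3, and 0 were listed at day 7.

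By chromosome, opening sites made up between 34.5% (31.4 to 37.8) of day 7 peaks on X and 44.2% (42.4 to 46.1) on chromosome 11, leaving aside chromosome Y with 19 peaks. Closing sites made up between 11.4% (10.0 to 13.0) of day 3 peaks on chromosome 7 and 21.0% (19.3 to 22.8) on chromosome 1. X was low in opening in Flag as well, at 24.8%, and high in closing, at 29.2%.

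The widest opening sites were large enough to match kept peaks. At gene ends they lay at Lzts2 (2408 bp, chromosome 19, 45015731 to 45018138), Sfmbt1 (1808 bp), Kcng3 (1752 bp), Eya4 (1519 bp) and Col5a1 (1503 bp). Off gene ends they lay nearest to Ifitm6 (1748 bp), Pgr (1607 bp), Stox2 (1591 bp), Srebf1 (1534 bp) and Tspan4 (1488 bp). All 10 were listed in Flag at day 7, and 9 also at day 3, with Eya4 the exception. The widest closing sites were smaller. At gene ends they reached 808 bp at 2310057N15Rik, with Irgm1, Sarnp, the embryonic globin gene Hbb-y and Aebp2 next (703, 689, 653 and 591 bp). Elsewhere they reached 1382 bp nearest to Cntn6, followed by sites near Emcn (1082 bp), Nckap5 (1043 bp), Kctd8 (1025 bp) and AW554918 (1010 bp). All 10 were listed in Flag at day 3, and those of Cntn6 and AW554918 at day 7 too.

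MicroRNA genes were looked at after the coding genes had been seen, so the miRNAs named were chosen with their values known. Of 1005 RefSeq hairpins 883 had no D209N peak within 1 kb at day 3, and 48 of them, 5.44%, had one at day 7. Of the 48, 36 were listed in Flag at day 7 and 21 at day 3, and 4 hairpins lost their peak. Gained hairpins included those of miR-203 and miR-375, which are abundant in epithelial tissue, and of miR-9, miR-137 and miR-129, which are abundant in the nervous system. The hairpins of miR-199b and miR-152 were gained too. The named hairpins are a few of the 48. How many hairpins of other miRNAs abundant in epithelial or nervous tissue were not gained was not counted. Mature sequences are shown with the seed, bases 2 to 8, in capitals, as it sets the choice of target. The Mir129-1 and Mir129-2 hairpins share the miR-129-5p sequence, and no other seed below is shared.
miR-203-3p: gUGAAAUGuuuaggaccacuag
miR-9-5p: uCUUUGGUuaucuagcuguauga
miR-137-3p: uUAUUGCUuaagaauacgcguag
miR-129-5p: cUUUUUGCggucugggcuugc
miR-199b-3p: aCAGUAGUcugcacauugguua
miR-152-3p: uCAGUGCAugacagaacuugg

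The hairpin of Mir203 (chromosome 12, 112130880 to 112130955) was listed in Flag on both days and in D209N at day 7 alone. Those of Mir375 (chromosome 1, 74900658 to 74900721), Mir9-1 (chromosome 3, 88215598 to 88215686) and Mir129-1 were listed in Flag at day 7 alone. Mir137 and Mir129-2 were in neither Flag list. An opening site itself lay within 1 kb of each of these hairpins. Mir152 lies 0.554 kb from the end of the coding gene Copz2, so its peak cannot be told apart from one of that gene.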

How the data were processed

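The authors deposited 1 list of peak intervals for each of the 4 ATAC-seq groups, holding chromosome, start, end and a name, with no count, signal or score. Bowtie2 2.3.2, CASAVA and the builds GRCm38.p5 and mm10 are listed in the submitters' processing notes. The peak caller, its threshold, the shift of insertion positions and the joining of the 2 replicates were steps not given in the sources used here. Every peak name carries rep1. Lists were matched to groups by arm and day, and 3 mitochondrial intervals per list were left out. Depth is unknown.

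Overlap (at least 1 bp), gene-end windows, assignment, CpG and letter counts were computed in Python 3.11.15 with numpy 2.4.6, pandas 2.3.3 and scipy 1.17.1, and the overlap and gene-end steps were tested on simulated lists. Genes, start sites and sequences came from RefSeq tables of GRCm38.p6. The gene table has no strand or exons, so both ends of a gene were used. Of its 21887 coding genes, 108 lie in the first 3 Mb of a chromosome other than Y, where no gene-end peak was listed. Of 490 list symbols 489 matched.

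The members and gene lists were chosen with earlier results of these data known. Named genes are list members whose gene-end state changed, the 12 genes with most opening and most closing sites, and the 6 with most among genes with no peak on the other day. The 6 genes with most sites of both kinds, the 5 widest sites per class and place, and the 5 longest runs are named too. A few genes that the rule selects are not reported here. The microRNA windows, and motif shares within CpG-rich windows, were added after the lists had been seen. Other overlaps, widths and distances, and promoter windows covered whole by a day 7 peak, were tried as alternatives.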

Additional observations from a re-analysis of the deposited data

Results flagged for a closer look

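At 7 of the 111 genes named, the number of assigned peaks moved in opposite directions in the 2 arms between day 3 and day 7. Over all coding genes 970, or 4.43%, did so. Only genes that change in both arms can, and these numbered 6295. The named genes were chosen largely because their state or number of peaks changed, and with 1 list per group the difference was not tested. The counts rest on assignment to the nearest gene end. Cdh1 changed by 5 peaks in D209N (1 to 6) and by -2 in Flag (4 to 2). Wnt5a changed by 3 (1 to 4) and by -1 (3 to 2), and Bmp2 by 2 (1 to 3) and by -2 (4 to 2). Tead3 changed by 1 (1 to 2) and by -2 (4 to 2). Phlpp1 changed by 1 (9 to 10) and by -4 (12 to 8), and Zfhx4 by 1 (6 to 7) and by -1 (9 to 8). Cib4 went the other way, by -3 in D209N (3 to 0) and by 1 in Flag (1 to 2). At each of them except Cib4 the Flag list held more peaks than the D209N list at day 3. The D209N day 3 list was also shorter over the genome, with 29189 peaks against 36375 in Flag.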

How the results depend on the processing

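No paired analysis was possible because each group has 1 list, and for the same reason no replicate could be left out. Numbers of opening and closing sites stayed within 1.5 times under both overlap rules, and the cause of the changes that follow was not tested. Asking for 50% of the shorter peak gave Flag shares of 69.5% (day 7) and 31.1% (day 3) for opening sites and 69.1% (day 3) and 19.7% (day 7) for closing sites. Counting peaks within 500 bp as shared gave 74.1%, 34.5%, 73.0% and 24.2%. Keeping sites at or above the median width of their list left 2835 opening and 719 closing sites, of which 93.4% of opening sites were in Flag at day 7 and 57.4% at day 3, and 95.1% of closing sites at day 3. Gene-end shares of opening and closing sites were 12.0% and 2.20% with a window of 0.5 kb and 22.8% and 8.14% with 2.5 kb. Genes losing a gene-end peak numbered 110 with 2.5 kb. Assignment within 20 kb left 165 genes with at least 4 opening and 15 with at least 3 closing sites, because more remote sites drop out, and by nearest gene body 215 genes had at least 3 closing sites. Within 20 kb, 23 of the 24 genes named for many sites changed by over 1.5 times, Sptssb being the exception. Of the 24 lists, 4 changed their number of gained genes by over 1.5 times with 0.5 kb and 6 with 2.5 kb. Counting only opening promoter windows covered whole by a day 7 peak moved 7 of the 14 motif shares, and kept windows were not counted that way. Asking that an opening site itself touch the gene end left 1906 gained genes, an alternative chosen after seeing the data. Intervals and shares have no read depth behind them, so a site absent from a list may lie just under the calling threshold.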
